A study of Homo sapiens with 3 samples.

Results

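The genes described here control whether a cell divides or dies: direct targets of the transcription factor p53, inhibitors of cyclin-dependent kinases and other brakes on the cell cycle, and the proteins that start or block apoptosis. They were chosen by name, and every probe set that the platform annotation ties to 1 gene symbol among the 44 named genes was taken. Probe sets were found for 42 of the 44 genes, 153 in all, out of 18132 genes and 49395 probe sets on the array. CDKN2C and FDXR had no such probe set and were not analysed here. The genes fall into 4 groups by role, with 13 genes of cell cycle arrest, 11 p53 targets outside arrest and death, 16 pro-apoptotic genes and 4 anti-apoptotic genes.

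The arrays held total RNA of Caco-2, an established human colorectal cancer line with enterocyte-like features. Knockdown line 1 carried shOCC-1-1 and knockdown line 2 carried shOCC-1-2, which are independent short hairpin RNAs against the transcript OCC-1 (gene symbol C12orf75), and the control carried shCTRL, a non-target hairpin. All 3 cultures had been transduced with lentivirus, kept in puromycin at 1 µg/ml for 5 days in medium with 20% serum and then left for 24 h without the drug. Each culture gave 1 array, so both knockdown lines were set against the same control array and a single line allows no test. A limit of the model is that the control rests on 1 culture.

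In the p53 pathway, damage or stress switches on arrest genes such as CDKN1A, the feedback ubiquitin ligase MDM2, repair genes, and death genes such as BBC3 and BAX. CDK inhibitors of the CIP/KIP family (CDKN1A, CDKN1C) and of the INK4 family (CDKN2A to CDKN2D) keep the retinoblastoma proteins RB1 and RBL2 active, and these hold back genes of DNA replication. Apoptosis runs through death receptors and caspase 8, or through mitochondria, where BH3-only proteins such as BCL2L11 release BAX and BAK1 from anti-apoptotic proteins such as BCL2L1. Many of these genes also have regulators outside the p53 pathway.

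The study counts a gene as regulated by OCC-1 when each hairpin changed it, and the first question was whether any of these genes met that definition by size. Of the 42 genes 36 had a brightest probe set above the intensity threshold, which was the median of all probe sets (an intensity of 183.7). Of these 36 genes 0 were at least 1.5-fold higher and 0 were at least 1.5-fold lower than control in both lines. Over all 11329 genes above the threshold, 1.36% were at least 1.5-fold higher in both lines and 0.159% were at least 1.5-fold lower. At 1.3-fold, 1 of the 36 was higher in both lines (TIGAR) and 1 was lower (GDF15), against 5.31% and 0.936% of all genes. At 2-fold the counts were 0 and 0, against 0.0706% and 0.0353% of all genes. Taken alone, line 1 had 0 of the 36 at least 1.5-fold higher and 0 at least 1.5-fold lower (1.93% and 0.212% of all genes), and line 2 likewise had 0 and 0 (1.87% and 0.406% of all genes).

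Smaller differences were tested with limma, which set both knockdown lines against the control over all 11329 genes. In limma 4 of the 36 genes were called higher (TIGAR, RRM2B, TXNIP and RB1) and 2 were called lower (GDF15 and BCL2L1) at an adjusted p under 0.05. These are 11.1% and 5.56% of the 36, where 9.63% of all genes tested were higher and 3.06% were lower. RB1 passed the intensity threshold only through the knockdown arrays, as its control value lay below it, so its place among the 36 depended on the difference being counted. Without genes whose control and mean knockdown intensity lay on opposite sides of the threshold, 3 of 35 were higher and 2 were lower, or 8.57% and 5.71%, against 9.55% and 3.04% of all such genes. The share called higher was thus near the background either way, and the share called lower rests on 2 genes. The median log2 difference of the 36 genes was 0.02 in line 1 and -0.09 in line 2, against -0.03 and -0.02 over all genes tested. In bulk RNA, fewer cells that express a gene and less RNA per cell cannot be told apart.

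**Figure D1:**
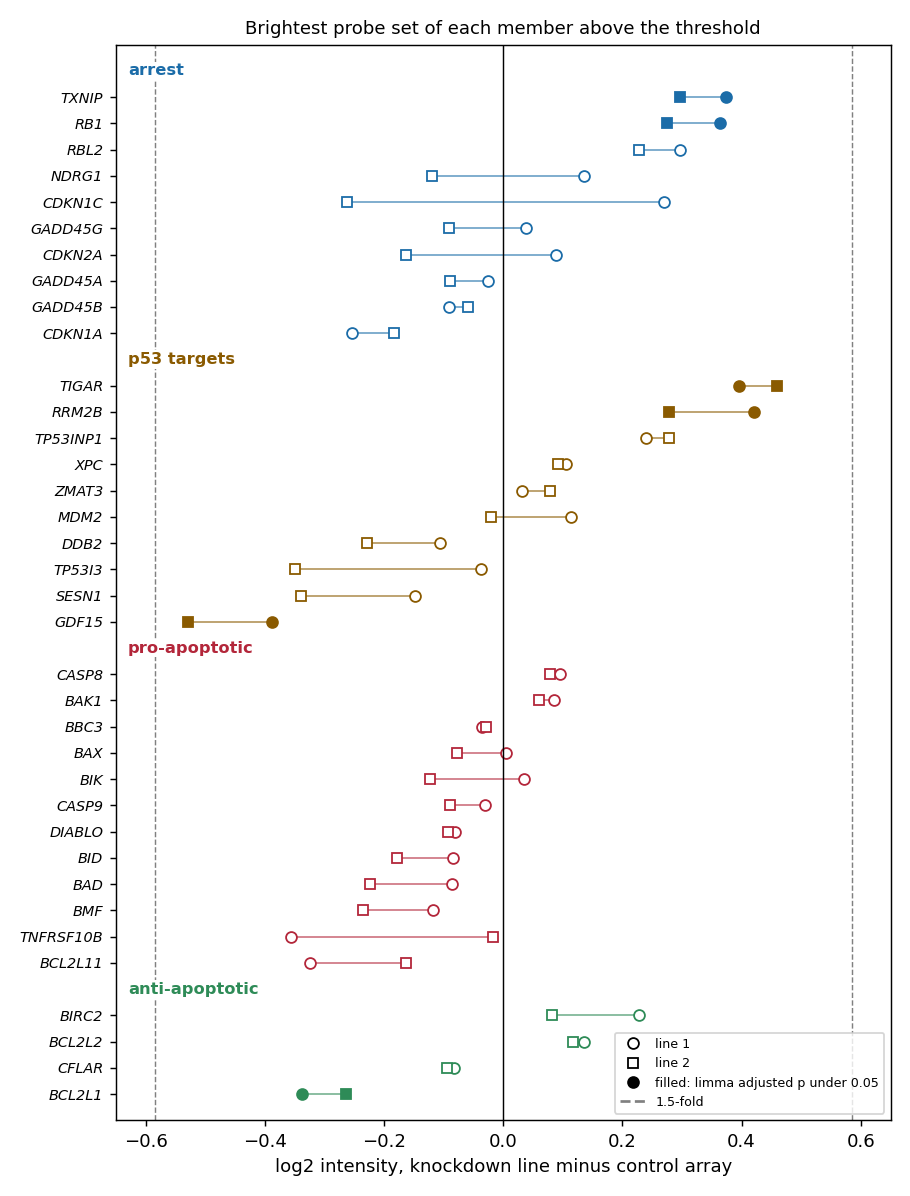
Log2 intensity difference from the control array (horizontal axis) for the brightest probe set of each of the 36 genes above the threshold, grouped by role, with circles for knockdown line 1 and squares for knockdown line 2. Filled symbols passed limma at an adjusted p under 0.05, and no gene lies beyond the dashed 1.5-fold lines.

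TIGAR, TXNIP and RB1 were called higher by limma and GDF15 and BCL2L1 lower. For each, the 250 bases before a transcription start in RefSeq are shown (GRCh38.p14, 5′ to 3′ along the gene). For RB1 that start lies inside the gene, and the bases before the start of the gene itself are not shown. No sequence is shown for RRM2B. Capitals mark matches on either strand to CCAAT, the core bound by NF-Y, to GGGCGG, a core bound by SP1, to TATAAA, the TATA box, and, in RB1, to the p53 half-site consensus.
TIGAR (chr12:4320963-4321212, plus strand): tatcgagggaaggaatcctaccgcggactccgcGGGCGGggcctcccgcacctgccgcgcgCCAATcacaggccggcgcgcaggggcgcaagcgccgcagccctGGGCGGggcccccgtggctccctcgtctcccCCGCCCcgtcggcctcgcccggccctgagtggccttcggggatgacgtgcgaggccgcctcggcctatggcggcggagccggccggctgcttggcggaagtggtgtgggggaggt
TXNIP (chr1:145996580-145996829, minus strand): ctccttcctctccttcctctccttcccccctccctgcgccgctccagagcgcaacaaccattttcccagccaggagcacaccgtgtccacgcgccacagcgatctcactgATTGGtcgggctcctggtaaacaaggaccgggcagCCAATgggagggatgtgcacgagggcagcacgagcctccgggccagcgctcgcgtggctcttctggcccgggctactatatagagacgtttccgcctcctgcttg
RB1 (chr13:48476200-48476449, plus strand): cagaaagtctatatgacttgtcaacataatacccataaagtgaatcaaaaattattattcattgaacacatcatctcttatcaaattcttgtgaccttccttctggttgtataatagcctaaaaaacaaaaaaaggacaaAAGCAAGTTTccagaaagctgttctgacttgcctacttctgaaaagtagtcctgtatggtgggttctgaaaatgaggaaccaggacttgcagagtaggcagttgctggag
GDF15 (chr19:18385908-18386157, plus strand): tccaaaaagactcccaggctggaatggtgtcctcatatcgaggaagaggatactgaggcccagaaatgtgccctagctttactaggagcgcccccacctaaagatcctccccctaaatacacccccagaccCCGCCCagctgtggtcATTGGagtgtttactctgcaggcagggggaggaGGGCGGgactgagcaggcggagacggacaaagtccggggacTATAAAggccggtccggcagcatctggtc
BCL2L1 (chr20:31723964-31724213, minus strand): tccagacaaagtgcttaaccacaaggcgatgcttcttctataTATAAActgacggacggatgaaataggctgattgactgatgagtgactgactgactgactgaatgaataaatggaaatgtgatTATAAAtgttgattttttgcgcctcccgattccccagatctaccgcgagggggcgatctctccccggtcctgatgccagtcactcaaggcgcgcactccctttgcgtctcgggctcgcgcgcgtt

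TXNIP and BCL2L1 have 2 such windows each in the table, and the one farther upstream is shown. GDF15 had TATAAA 29 bases before its start, with 1 CCAAT and 2 GGGCGG matches further up. TIGAR had 3 GGGCGG matches and 1 CCAAT match in a window of 76.8% G and C, and no TATAAA. TXNIP had 2 CCAAT matches, and BCL2L1 had 2 TATAAA matches. Of all 35116 windows of this length, 32.0% hold CCAAT, 42.6% hold GGGCGG and 10.7% hold TATAAA. The p53 half-site consensus was searched on both strands as well. It matched once inside the RB1 window, 110 bases before the transcription start at its 3′ end, and in none of the other 4 windows. The RB1 window lies inside the gene, which spans chr13:48303751-48481890, and is the one RB1 window in the table. Its half-site is therefore not a match in the bases before the start of the gene. Over all windows of the 44 genes, 7 of 67 held the half-site, or 10.4%, against 5.57% of all windows. The CACGTG E-box, found in 6.34% of all windows, was not among the letters of the 5 printed windows. No matches overlapped in the printed sequences.

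Among the p53 targets outside arrest and death, 2 of the 10 genes above the threshold rose, 1 fell and 7 were not called in limma, where 9.63% of all genes were higher and 3.06% were lower. TIGAR encodes a fructose bisphosphatase that lowers glycolytic flux. It had intensities of 433.1 in line 1 and 452.8 in line 2, against 329.3 in the control, so that both lines lay above the control. This is 131.5% and 137.5% of control, and the log2 difference was 0.43 ± 0.08 (SE, limma adjusted p = 0.0163). Its dimmer probe set had 248.6 and 279.4 in lines 1 and 2, against 241.0 in the control, which is a difference of 0.04 and 0.21. With the mean of both probe sets TIGAR was not called (0.28, limma adjusted p = 0.0556).

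GDF15, a secreted stress-response cytokine of the TGF-beta family, had the largest decrease of the 36 genes. It had intensities of 758.1 in line 1 and 687.3 in line 2, against 992.0 in the control. This is 76.4% and 69.3% of control, with a log2 difference of -0.46 ± 0.09 (SE, limma adjusted p = 0.0193). The call was lost with the mean of all its probe sets (-0.27, limma adjusted p = 0.0716) and without probe sets whose names end in _s_at or _x_at (-0.40, limma adjusted p = 0.0527). All 3 of its probe sets above the threshold were lower in both lines. The middle one had 537.7 in line 1 and 454.0 in line 2, against 652.8 in the control. The dimmest of the 3 had 375.0 in line 1 and 303.7 in line 2, against 448.6 in the control. In each of them line 2 was lower than line 1. The remaining pair of GDF15 probe sets lay between 120.1 and 131.3 on all arrays, below the threshold.

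RRM2B, the p53-inducible ribonucleotide reductase subunit that supplies nucleotides for DNA repair, was measured near the threshold. It had 257.7 in line 1 and 233.3 in line 2, against 192.4 in the control, a log2 difference of 0.35 ± 0.09 (SE, limma adjusted p = 0.0450). Its other 8 probe sets were below the threshold, with intensities between 68.4 and 128.1, so the increase was read by 1 probe set of 9, and with their mean the gene was below the threshold.

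Of the 7 p53 targets that were not called, TP53INP1, which promotes autophagy and cell death, came nearest. It had 297.0 in line 1 and 304.9 in line 2, against 251.5 in the control (limma adjusted p = 0.0664). TP53INP1 passed after cyclic loess (0.29, limma adjusted p = 0.0355) and without the intensity filter (0.26, limma adjusted p = 0.0424). With the mean of all its probe sets the difference was 0.17 and did not pass (limma adjusted p = 0.152). This gene and several named later (CDKN1A, CDKN1C, CDKN2A, NDRG1, MDM2, SESN1, TP53I3, DDB2, BAX, BBC3, BAD, DIABLO and CFLAR) were singled out after their values were seen, because of their known role or their spread between lines. MDM2 had 222.6 in line 1 and 202.9 in line 2, against 205.7 in the control. The lines thus lay on both sides of the control for MDM2, and 9 of its 11 probe sets were below the threshold. SESN1, a stress-induced inhibitor of mTORC1, had 691.1 and 605.3 in lines 1 and 2, against 765.6 in the control. Its dimmer probe set had 257.4 and 210.4 in the lines, against 218.8 in the control, so line 1 lay above the control there. DDB2, which recognises ultraviolet lesions in DNA, had 315.1 and 289.3 in lines 1 and 2, against 339.2 in the control. The nucleotide excision repair gene XPC and ZMAT3, which encodes an RNA-binding zinc finger protein, differed from control by at most 0.10 on the log2 scale in each line, both upward.

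**Figure D2:**
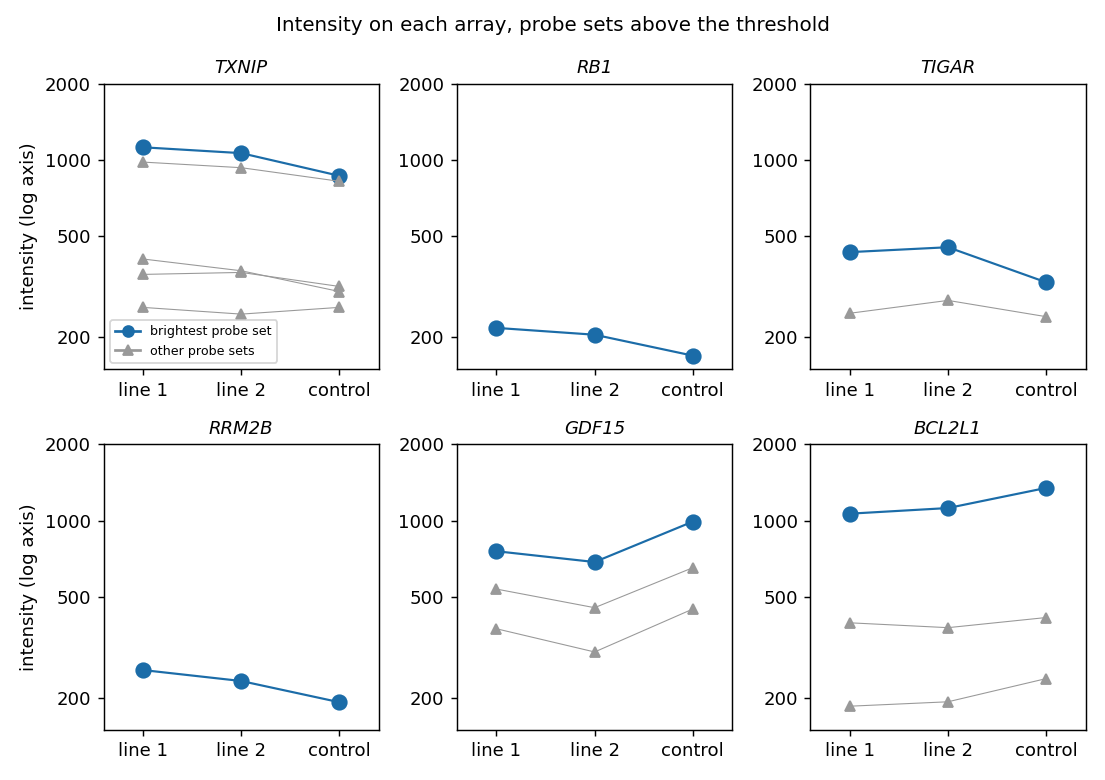
Intensity (log axis) in knockdown line 1, knockdown line 2 and the control for the 6 genes that passed limma, with the brightest probe set as blue circles and other probe sets above the threshold as grey triangles. Both lines lie above the control in the brightest probe sets of TXNIP, RB1, TIGAR and RRM2B and below it in those of GDF15 and BCL2L1.

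Among the arrest genes, 2 of the 10 above the threshold were called higher in limma (TXNIP and RB1), 0 were called lower and 8 were not called. Over all genes tested, 9.63% were higher and 3.06% were lower. RB1 entered the 10, here and in the next count, only through its knockdown arrays. Its place in both counts thus depended on the difference being counted, and without RB1 only TXNIP was called. At an unadjusted p under 0.05, 3 of the 10 were higher (TXNIP, RB1 and RBL2) and 1 was lower (CDKN1A), where 17.9% of all genes were higher and 12.9% were lower. TXNIP encodes a thioredoxin-binding arrestin that limits glucose uptake. It had 1122 in line 1 and 1064 in line 2, against 865.9 in the control, a log2 difference of 0.34 ± 0.08 (SE, limma adjusted p = 0.0360). Of its 5 probe sets 4 were higher in both lines, with differences between 0.16 and 0.43 in line 1 and between 0.18 and 0.30 in line 2. The fifth had 262.2 in line 1 and 246.7 in line 2, against 262.3 in the control. The names of 4 of the 5 end in _s_at, which marks probe sets that can match more than 1 gene. With only the remaining probe set TXNIP was not called (difference 0.17, limma adjusted p = 0.188), nor was it with the mean of all 5 (0.21, limma adjusted p = 0.0900).

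RB1, the retinoblastoma protein that restrains entry into DNA replication, had 217.7 in line 1 and 204.6 in line 2, against 169.2 in the control. The log2 difference was 0.32 ± 0.08 (SE, limma adjusted p = 0.0441). In the fit without the intensity filter, which did not depend on the threshold, RB1 was also called (0.32, limma adjusted p = 0.0157). That fit used the same RB1 intensities and differed only in the genes fitted beside it, so it is not separate support. The other pair of RB1 probe sets stayed between 88.9 and 98.5 on all arrays. RBL2, its relative p130 that acts mainly in resting cells, had 926.8 in line 1 and 883.6 in line 2, against 754.6 in the control. The difference was 0.26 ± 0.08 (SE) and missed the threshold (limma adjusted p = 0.0699). RBL2 was called in 2 of 8 fits, after cyclic loess (0.28, limma adjusted p = 0.0396) and without the intensity filter (0.26, limma adjusted p = 0.0423). With the mean of all its probe sets the difference was 0.08 (limma adjusted p = 0.409). The second RBL2 probe set above the threshold had 228.6 and 211.7 in lines 1 and 2, against 205.8 in the control. Fitted on its own, that probe set did not pass (limma adjusted p = 0.46).

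CDKN1A encodes p21, the best known arrest target of p53. It had 408.7 in line 1 and 429.0 in line 2, against 487.3 in the control. Both lines lay below the control, with log2 differences of -0.25 and -0.18 that did not pass (limma adjusted p = 0.109). Its dimmer probe set showed 172.6 and 180.8 in lines 1 and 2, against 201.2 in the control, with differences of -0.22 and -0.15. GADD45A, GADD45B and GADD45G, which encode stress-induced binding partners of growth and repair proteins, differed by -0.03, -0.09 and 0.04 in line 1 and by -0.09, -0.06 and -0.09 in line 2. Both CDKN2B and CDKN2D, INK4 inhibitors of the cyclin D kinases, were below the threshold, with intensities between 118.7 and 154.8 in their brightest probe sets.

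Among the pro-apoptotic genes, 0 of the 12 above the threshold were called by limma in either direction, where 9.63% of all genes were higher and 3.06% were lower. At an unadjusted p under 0.05 there was 1 of the 12, against 30.8% of all genes tested. The median log2 difference of these 12 genes was -0.06 in line 1 and -0.09 in line 2, against -0.03 and -0.02 over all genes tested. In 8 of the 12 the brightest probe set lay below the control in both lines, in 2 it lay above it in both, and in 2 the lines lay on opposite sides. Over all genes tested, 45.7% lay below the control in both lines and 36.5% above it in both. The 4 pro-apoptotic genes below the threshold were PMAIP1 (the BH3-only protein NOXA), the death receptors FAS and TNFRSF10A, and APAF1, the scaffold of the apoptosome. Their brightest probe sets lay between 95.1 and 157.7 on all arrays, and they were not tested.

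BCL2L11 encodes BIM, a BH3-only protein that starts mitochondrial apoptosis. It had 490.9 in line 1 and 549.0 in line 2, against 614.4 in the control, a log2 difference of -0.24 ± 0.09 (SE) that did not pass (limma adjusted p = 0.124). It was read by 7 probe sets above the threshold, of which 6 were lower in both lines. When every probe set was fitted on its own, 1 of the 7 passed (probe set differences of -0.37 in line 1 and -0.24 in line 2, limma adjusted p = 0.0460). That probe set had 333.3 in line 1 and 364.7 in line 2, against 431.1 in the control. The remaining one of the 7 had 262.2 in line 1 and 276.1 in line 2, against 270.2 in the control. Another 7 BCL2L11 probe sets lay below the threshold and went both ways. The brightest of these was higher in both lines, with 158.6 and 149.1 in lines 1 and 2, against 122.0 in the control.

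BMF, a BH3-only protein tied to the cytoskeleton, had 534.2 in line 1 and 492.4 in line 2, against 579.7 in the control (difference -0.18 ± 0.08 SE, limma adjusted p = 0.199). BAD, a BH3-only protein held inactive by survival kinases, had 952.4 in line 1 and 866.5 in line 2, against 1011 in the control. Both probe sets of BAD were lower in both lines, and line 2 was the lower of the lines in each. For BID, which caspase 8 cleaves to link the death receptors to mitochondria, 3 of 4 probe sets were lower in both lines and 1 was higher in both. For BIK, a BH3-only protein of the endoplasmic reticulum, 2 of 3 probe sets were lower in both lines, and the brightest differed by 0.04 in line 1 and -0.12 in line 2.

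The pore-forming proteins showed small differences that depended on the probe set. BAX had 824.9 in line 1 and 779.2 in line 2, against 822.1 in the control. Its second probe set had 549.4 in line 1 and 546.0 in line 2, against 654.3 in the control, a difference of -0.25 and -0.26. BAK1 was 0.09 and 0.06 above control in its brightest probe set, and its 3 other probe sets above the threshold were below control in both lines. BBC3, the BH3-only protein PUMA, had 558.5 in line 1 and 561.0 in line 2, against 572.4 in the control.

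The caspases and DIABLO were not called either. CASP8, the initiator caspase of death receptors, differed by 0.10 and 0.08 in lines 1 and 2, and 3 of its 5 probe sets above the threshold were higher in both lines and 2 lower in both. CASP9, the initiator caspase of the mitochondrial route, differed by -0.03 and -0.09. DIABLO, which is released from mitochondria and blocks the inhibitor of apoptosis proteins, had 1651 in line 1 and 1639 in line 2, against 1748 in the control (limma adjusted p = 0.459).

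Of the 4 anti-apoptotic genes, all above the threshold, 0 rose and 1 fell in limma, and the counts were the same at an unadjusted p under 0.05. Over all genes tested, 9.63% were higher and 3.06% were lower in limma. At an unadjusted p under 0.05 these shares were 17.9% and 12.9%. BCL2L1 encodes BCL-XL, which binds and restrains BAX, BAK1 and the BH3-only proteins. It had 1066 in line 1 and 1122 in line 2, against 1347 in the control, a log2 difference of -0.30 ± 0.08 (SE, limma adjusted p = 0.0489). All 3 BCL2L1 probe sets were lower in both lines. The dimmest had 185.6 in line 1 and 193.2 in line 2, against 238.5 in the control, and passed when fitted on its own (limma adjusted p = 0.0249). The one between them had 395.8 in line 1 and 378.7 in line 2, against 415.2 in the control (limma adjusted p = 0.414). The call was lost after background correction with normexp (-0.30, limma adjusted p = 0.0503), with the mean of the 3 probe sets (-0.24, limma adjusted p = 0.0504) and without probe sets whose names end in _s_at or _x_at (-0.10, limma adjusted p = 0.434).

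The other 3 anti-apoptotic genes were not called. BIRC2, a ubiquitin ligase of the inhibitor of apoptosis family, had 2489 in line 1 and 2248 in line 2, against 2125 in the control (limma adjusted p = 0.279). All 5 BIRC2 probe sets were above control in line 1, and 2 of the 5 were above it in line 2. BCL2L2, or BCL-W, a close relative of BCL-XL, had 428.1 in line 1 and 422.3 in line 2, against 389.5 in the control (limma adjusted p = 0.291). The other pair of BCL2L2 probe sets, below the threshold, went the other way. Their differences were -0.20 and -0.16 in line 1 and -0.29 and -0.12 in line 2. CFLAR, the FLIP protein that blocks caspase 8 at death receptors, had 669.3 in line 1 and 664.1 in line 2, against 709.0 in the control, and its 6 probe sets above the threshold went both ways.

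The knockdown lines differed from each other in several of the genes, which is described without a test because each line is 1 array. CDKN1C, the imprinted CDK inhibitor p57, had the widest gap of the 36 genes. It had 813.7 in line 1 and 562.4 in line 2, against 674.6 in the control, so line 1 lay above and line 2 below the control. The gap between the lines was 0.53 on the log2 scale, or 1.45-fold, and ranked 11 among the 11329 genes, where the SD of the difference between the lines was 0.11. The second CDKN1C probe set had 767.9 in line 1 and 537.5 in line 2, against 675.8 in the control. The third had 485.2 in line 1 and 377.7 in line 2, against 439.8 in the control, so all 3 probe sets had the control between the lines.

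TNFRSF10B, the TRAIL death receptor DR5, had 905.9 in line 1 and 1146 in line 2, against 1160 in the control (difference -0.19 ± 0.13 SE, limma adjusted p = 0.383). Line 1 was at 78.1% of control and line 2 at 98.8%, and the other pair of TNFRSF10B probe sets, below the threshold, had differences between the lines of -0.02 and 0.04. In the brighter of that pair lines 1 and 2 were at 85.4% and 86.9% of control, and in the dimmer at 97.3% and 94.5%. TP53I3, a quinone oxidoreductase induced by p53, was read by 1 probe set and had 532.1 in line 1 and 428.5 in line 2, against 545.9 in the control. Here line 2 was the lower one, at 78.5% of control. NDRG1, a stress- and hypoxia-induced growth suppressor, had 909.5 in line 1 and 761.7 in line 2, against 827.8 in the control. CDKN2A, the locus of p16 and p14ARF, had 2287 in line 1 and 1920 in line 2, against 2150 in the control. In both NDRG1 and CDKN2A the control lay between the lines, but for CDKN2A the other pair of probe sets was below control in both lines.

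**Figure D3:**
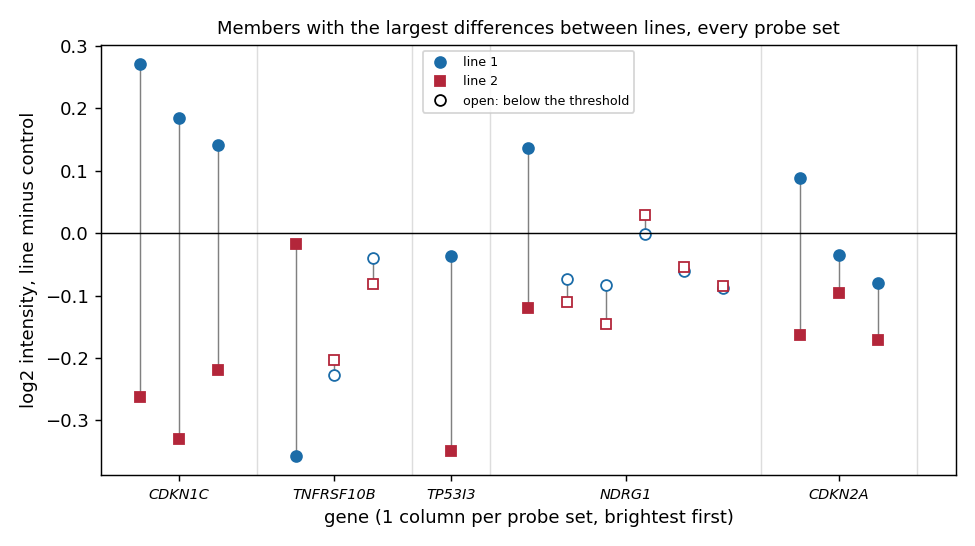
Log2 intensity difference from the control array for every probe set (1 column each, brightest first) of the 5 genes with the widest gap between the lines, with circles for knockdown line 1 and squares for knockdown line 2, open where below the threshold. In CDKN1C all 3 probe sets have line 1 above and line 2 below control, whereas the gaps of TNFRSF10B and NDRG1 appear in the brightest probe set.

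Fitted separately, 5 of the 89 probe sets of these genes above the threshold rose and 5 fell, or 5.62% each way, against 11.3% and 3.92% of all 22670 probe sets fitted. The 5 that rose belonged to 4 genes and the 5 that fell to 3 genes. The other 64 of the 153 probe sets were below the threshold.

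Other genes of the same pathways were taken from a separate list of 45, of which 39 had a probe set with 1 gene symbol and 29 were above the threshold. In limma 3 of the 29 rose and 1 fell, or 10.3% and 3.45%, near the 9.63% and 3.06% of all genes, and by size 1 was higher in both lines, against 1.36% of all genes. This was CCNG1, cyclin G1, a p53 target that acts with a phosphatase, which had 1047 in line 1 and 1084 in line 2, against 655.5 in the control (difference 0.70 ± 0.08 SE, limma adjusted p = 0.00519). The other 4 CCNG1 probe sets were higher in both lines as well, by 0.33 to 0.51 in line 1 and by 0.37 to 0.42 in line 2. CDKN1B, the CIP/KIP inhibitor p27, had 1707 in line 1 and 1941 in line 2, against 1261 in the control (0.53 ± 0.10 SE, limma adjusted p = 0.0165). The dimmer CDKN1B probe set differed by less (0.29, limma adjusted p = 0.0395 when fitted on its own). MDM4, the partner of MDM2, had 454.5 in line 1 and 475.3 in line 2, against 329.2 in the control (0.50 ± 0.08 SE, limma adjusted p = 0.0108). Its dimmer probe sets above the threshold differed by 0.14 and 0.22 and did not pass on their own (limma adjusted p = 0.25 and 0.0879). PERP, a p53 target in desmosomes and apoptosis, fell, with 1187 in line 1 and 1129 in line 2, against 1434 in the control (-0.31 ± 0.08 SE, limma adjusted p = 0.0455). The median difference of the 29 genes was -0.10 in line 1 and -0.07 in line 2. These counts and medians used brightest probe sets. Dimmer ones of XIAP, MCL1 and CDKN3, singled out after their values were seen, rose when fitted on their own. One of XIAP had 436.8 and 445.8 in lines 1 and 2, against 263.8 in the control (limma adjusted p = 0.0016). The brightest XIAP probe set and another above the threshold differed by 0.23 and 0.19 and did not pass (limma adjusted p = 0.0905 and 0.127). For CDKN3 the dimmer ones rose by 0.37 and 0.40 (limma adjusted p = 0.0169 and 0.0160). Its brightest differed by -0.105, and its others above the threshold went both ways without passing. For MCL1 the mean differences were 0.62 and 0.59 (limma adjusted p = 0.0028 and 0.0030), but -0.04 in its brightest and -0.03 in another.

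**Figure D4:**
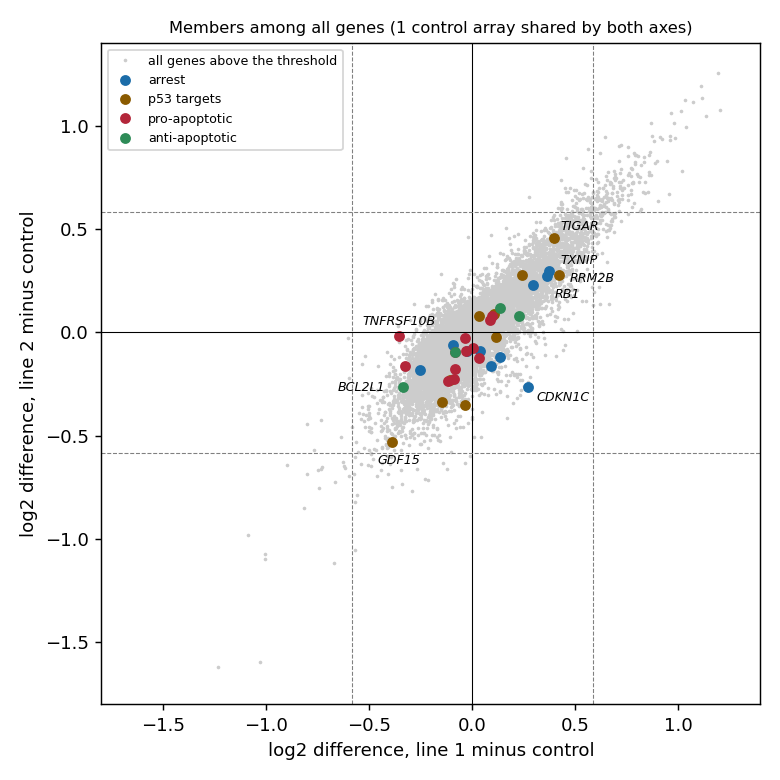
Log2 difference from control in knockdown line 1 (horizontal) and line 2 (vertical) for all 11329 genes above the threshold (grey) and for the 36 genes by role (colours), with dashed lines at 1.5-fold. Both axes use the same control array, and 0 of the 36 genes lie beyond 1.5-fold on either axis.

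The labels were checked by the targeted transcript, which had 517.8 in line 1 and 396.8 in line 2, against 1219 in the control. Of 6 intestinal epithelial markers, VIL1, CDX2, CDH17 and EPCAM were well above the threshold on all arrays, KRT20 lay at 182.2 to 185.8 and LGALS4 lay below the threshold at 128.6 to 155.8. EPCAM rose, with 5602 in line 1 and 5911 in line 2, against 3930 in the control (limma adjusted p = 0.0090). Of 15 fibroblast, leukocyte and endothelial markers 7 were above the threshold, 0 were called by limma (0 at an unadjusted p under 0.05), and PTPRC, which defines leukocytes, lay at 75.5 to 80.1. Probes for background (23 control probe sets, named by their count of G and C) moved with base composition. Their difference from control reached 0.06 in line 1 and 0.04 in line 2 at few such bases, and fell to -0.37 and -0.23 at many. Differences of this size lie in the range of those of the genes described, and the part of base composition in these results was not tested.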

How the data were processed

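Total RNA of 2 OCC-1 knockdown lines and 1 control was labelled with biotin and hybridised to oligonucleotide arrays, per the labels' protocols. The authors' deposited values were 1 linear intensity per probe set and array. The submitters' processing notes name RMA with no version or settings, and the handling of background and scaling is not given there. Array medians were 182.5, 183.6 and 185.5 in line 1, line 2 and the control, and no further normalization was applied. The number of arrays limits the precision.

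Intensities were converted to log2. Of the probe sets 44988 had 1 gene symbol in the platform annotation, 1832 had several and 2473 had none. The identifiers of 44961 were looked up in RefSeq and 0 symbols changed. The brightest probe set stood for each gene, and genes were kept whose mean reached log2 7.52, the median over all probe sets. Calls by size needed 1.5-fold the same way in both lines. limma 3.58.1 in R 4.3.3 (lmFit, eBayes, two-sided, Benjamini-Hochberg over 11329 genes) set 2 knockdown arrays against 1 control array with 1 residual degree of freedom, 6.96 in total after moderation. Nothing in the labels says that the lines are repeats of 1 culture, so p-values reflect only how 2 arrays with different hairpins differ, and the single control array is taken to vary to the same extent. Python 3.11.15 was used for the rest. Of the 44 genes 35 had a window of 250 bases before a transcription start in the RefSeq table.

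Values were to be given for each called gene and, per role, the 3 genes with the largest mean difference, and of the other pathway genes for those called by size and the 3 largest called by limma each way. The genes, their grouping and the lists were chosen with earlier results of these data known.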

Additional observations from a re-analysis of the deposited data

How the results depend on the processing

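No paired analysis was possible because the control has 1 array. With a fold of 1.3 the calls by size were 1 higher and 1 lower, and with a fold of 2, quantile normalization, cyclic loess, normexp, no intensity filter, the mean of all probe sets, or either line alone they were 0 and 0. The limma calls among the genes, 4 higher and 2 lower, became 0 and 0 with the mean of all probe sets, which left 29 genes above the threshold without RB1 and RRM2B. The higher calls became 6 after cyclic loess and without the intensity filter, which added RBL2 and TP53INP1 each time, with 2 lower in both. They became 3 without probe sets ending in _s_at or _x_at, which lost TXNIP, and 3 without genes that passed the threshold on 1 side only, which lost RB1, both alternatives chosen after seeing the data. The lower calls became 1 (GDF15) after normexp, 0 without probe sets ending in _s_at or _x_at, and were 2 without the genes that passed on 1 side only. Without _s_at and _x_at probe sets GDF15 was at -0.40 (limma adjusted p = 0.0527), and with the mean at -0.27 (limma adjusted p = 0.0716), and TIGAR with the mean at 0.28 (limma adjusted p = 0.0556). The cause was not tested. No gene given by rule changed direction in any fit. The median difference of both lines for the p53 targets was 0.05, and became -0.077 with the mean of all probe sets, 0.087 after cyclic loess and -0.035 without _s_at and _x_at probe sets. That of the pro-apoptotic genes was -0.07, and became -0.096 with the mean, -0.050 without the filter and -0.108 after quantile normalization. That of the anti-apoptotic genes was 0.02, and became -0.052 with the mean and -0.032 without _s_at and _x_at probe sets. With 1 line left out it lay between -0.0066 and 0.027. Background appears to remain in the intensities, since background control probe sets reached from 51.3 to 2307 in the control, which limits what genes near the threshold can show.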
